A study of Mus musculus with 4 samples.

Results

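The genes described here are zinc finger protein genes, taken as every listed variant whose gene symbol begins with Zfp, Zscan or Zkscan, counted once per position, new base and list. The symbols alone chose them, and no measured value was used. They came to 43 of the 2013 variants in the lists of 4 mouse tumour cell lines, at 38 of 1844 distinct sites, in 29 genes. YUMM 1.1 and YUMM 1.3 come from melanomas of engineered mice. UV YUMM 1.1-9 is listed only by the variants it carries beyond YUMM 1.1, and its name refers to ultraviolet light. MB49 is a carcinogen-induced bladder carcinoma line. Each line was sequenced as 1 exome library of genomic DNA, so no group has a replicate. Intervals below cover counting error within a library, and p-values compare lists, or sites within a list, and not conditions. The labels give no genotype, passage or ultraviolet dose for the lines. For all 4 samples they also carry a protocol in which MB49 cells, called male and isogenic to C57Bl/6J, grew as tumours in mice given TAM to delete Atg7. The sample source reads mouse tumours, whereas the extraction text speaks of cell lines and does not name YUMM 1.3. The list headed MB49 was assigned to the sample titled 49XC-49 because the other headings name the other samples.

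Zinc finger proteins of the C2H2 class fold around zinc ions, each held by a pair of cysteines and a pair of histidines, and arrays of such fingers read DNA. Many of them carry a KRAB domain, which recruits the corepressor Trim28 and heterochromatin factors to transposable elements and other targets. Others carry a SCAN domain, through which they pair with one another. The genes lie in clusters that arose by repeated duplication, so close copies are common in this family.

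A missense change replaces a residue, a stop gain ends the protein early and a synonymous change leaves the residue as it was. The allele fraction is the share of reads at a site that carry the new base. SIFT is a predictor that classes a missense change as tolerated or deleterious, with a score that is lower for changes it deems less tolerable. Changes are written as the listed residue, its number in the listed protein and the new residue, and an asterisk stands for a stop. Positions are on mm10.

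The codons that carry the main changes are shown first, because they are the sequences the lists hold for these sites. They are given 5′ to 3′ on the coding strand, with the changed base in capitals.
Zfp617 C536F in YUMM 1.3, a cysteine lost: tGt became tTt.
Zscan4c C389R in YUMM 1.1, a cysteine lost: Tgt became Cgt.
Zscan4d R497C in YUMM 1.1, a cysteine gained: Cgt became Tgt.
Zfp81 L335* in UV YUMM 1.1-9, the stop gain: tTa became tAa.
Zfp955b I70N in UV YUMM 1.1-9, next to a splice site: aTt became aAt.
Zfp663 P611L in UV YUMM 1.1-9, with a synonymous neighbour in the same codon: cCt became cTt, and ccT became ccA.
Zfp638 P231L in UV YUMM 1.1-9: cCt became cTt.
Zfp292 S763I in MB49: aGt became aTt.
Zfp111 R537G in MB49: Aga became Gga.
Zkscan6 Q68L in MB49: cAg became cTg.
Zscan5b R172W in YUMM 1.3: Cgg became Tgg.
Zfp180 V87I in YUMM 1.1 and YUMM 1.3: Gta became Ata.
Zfp936 G127R in YUMM 1.3 and MB49: Gga became Aga.
Zfp600 A3V in YUMM 1.1 and YUMM 1.3: gCt became gTt.

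The lists differ in depth and in how low they reach, which bears on every count below. Median read depth at the zinc finger sites was 67.0 in YUMM 1.1, 42.5 in YUMM 1.3, 53.0 in UV YUMM 1.1-9 and 35.0 in MB49, and single zinc finger sites had from 12 to 302 reads. At the other sites of the same lists it was 70.0, 113, 45.0 and 60.0. The zinc finger sites of YUMM 1.3 and MB49 thus had lower median depth than the rest of their lists. The 3 single-line lists hold no site under 5 reads with the new base, while that of UV YUMM 1.1-9 goes down to 3. The lowest allele fraction was 10.1% in MB49 and hardly less in YUMM 1.1 and YUMM 1.3, while it was 3.62% in UV YUMM 1.1-9. A gene absent from a list was therefore not necessarily unchanged in that line.

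YUMM 1.1 had 15 zinc finger sites in 10 genes, of which 14 were missense and 1 was synonymous. YUMM 1.3 had 8 sites in 7 genes, 6 missense and 2 synonymous. MB49 had 9 sites in 8 genes, 6 missense and 3 synonymous. UV YUMM 1.1-9 had 11 sites in 10 genes, of which 3 were missense, 1 was a stop gain and 7 were synonymous. Protein-changing sites thus made up 93.3% of the zinc finger sites in YUMM 1.1 (exact 95% interval 68.1 to 99.8), 75% in YUMM 1.3 (34.9 to 96.8), 66.7% in MB49 (29.9 to 92.5) and 36.4% in UV YUMM 1.1-9 (10.9 to 69.2). Among the other sites of the same lists the shares were 69.0%, 74.7%, 76.4% and 66.8%. These shares were set side by side after they had been seen and were not tested.

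**Figure D1:**
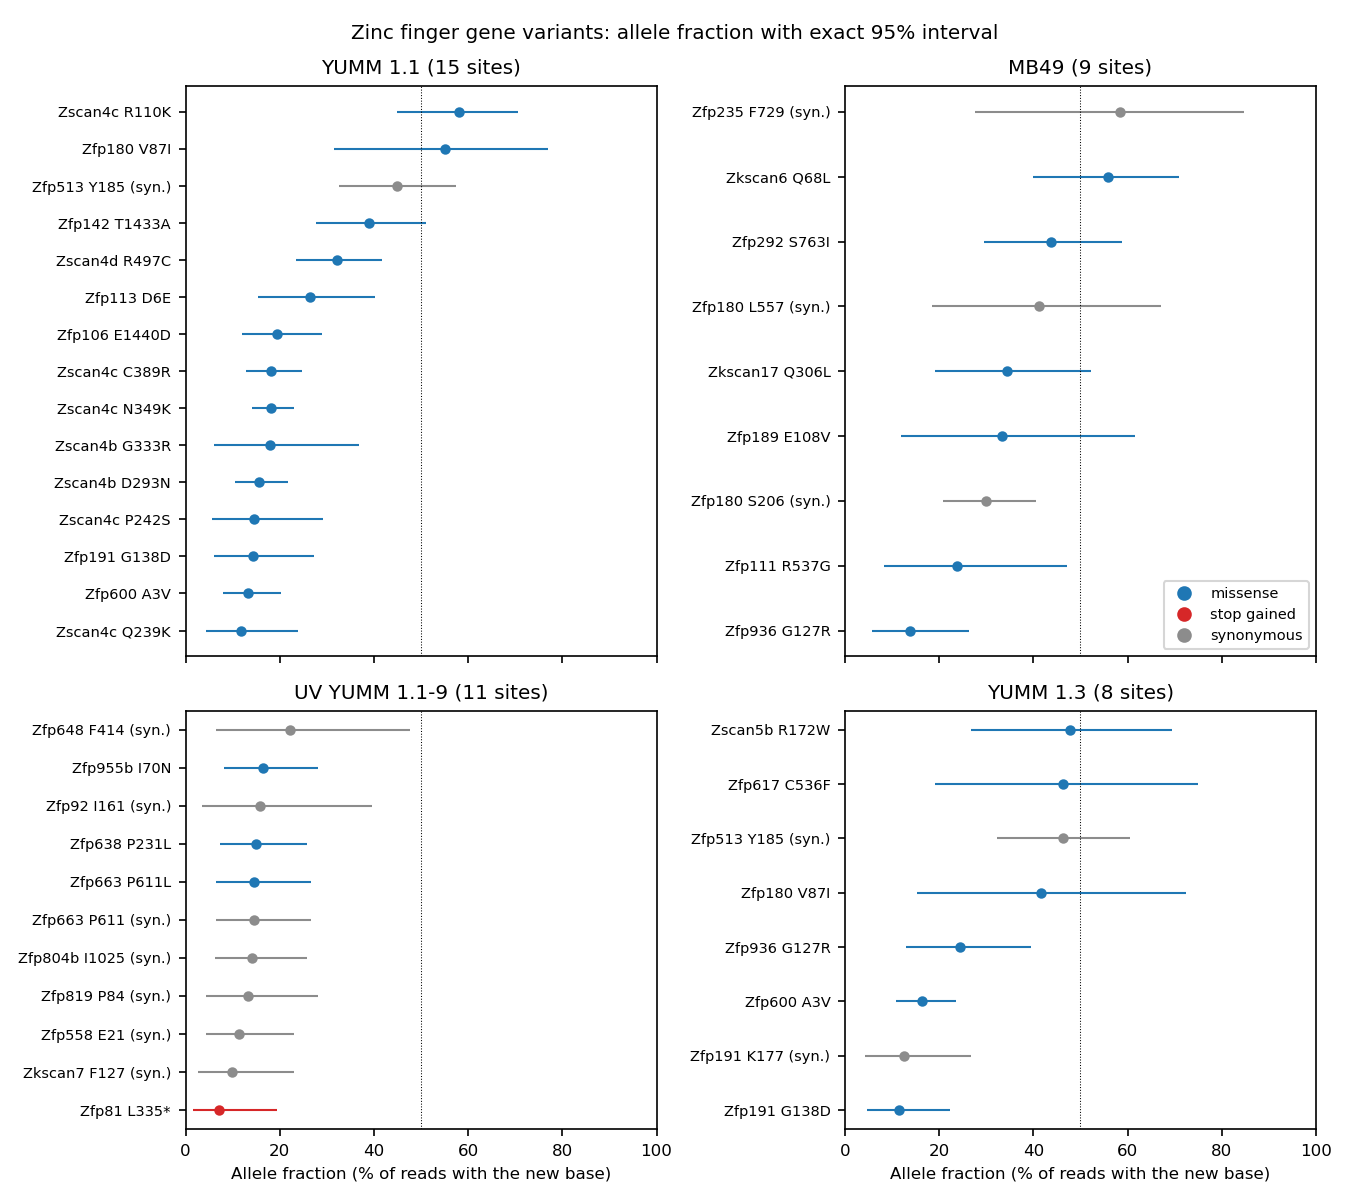
Allele fraction, in percent of reads with the new base, of all 43 zinc finger variants, with a panel per list, 1 row per variant and exact 95% intervals as lines; colours give the kind of change and the dotted line marks an allele fraction of 50%. Points of UV YUMM 1.1-9 lie between 7.14% and 22.2%, whereas the other lists reach 47.8% to 58.3%.

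Set against the annotation, 30 of the 427 protein-coding genes with such symbols in RefSeq (GRCm38.p6) carried a listed variant, or 7.03% (exact interval 4.79 to 9.88), beside 6.87% of all 21900 protein-coding genes. One of the 30 is listed under the older symbol Gm13154 and is outside the symbol rule. By line, 11 zinc finger genes were listed in YUMM 1.1, or 2.58% (1.29 to 4.56), beside 1.49% of all genes. In YUMM 1.3 there were 8, or 1.87% (0.812 to 3.66), beside 0.699%. In UV YUMM 1.1-9 there were 10, or 2.34% (1.13 to 4.26), beside 2.69%. In MB49 there were 9, or 2.11% (0.968 to 3.96), beside 2.71%. The pooled share was near the background. By line, the interval of YUMM 1.3 lay above its background, and those of the other lines included theirs. The counts of YUMM 1.1, YUMM 1.3 and MB49 include Gm13154. These shares were not tested, and gene length and capture were not taken into account.

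Cysteine and histidine are the residues that hold zinc, so their loss was counted first. Of 25 distinct missense sites, 2 replaced a cysteine and 0 replaced a histidine. In Zfp617 the change C536F at chr8:71933434 was found in YUMM 1.3 in 6 of 13 reads, an allele fraction of 46.2% (exact interval 19.2 to 74.9), and SIFT classed it as deleterious with a score of 0. In Zscan4c, a gene of early embryos, C389R at chr7:11009640 was found in YUMM 1.1 in 32 of 176 reads, or 18.2% (12.8 to 24.7), and was classed as tolerated with a score of 0.56. Whether either cysteine lies in a finger could not be read from the lists, which give the residue number without the protein.

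The share that lost a cysteine or histidine was 8.0% in zinc finger genes (exact interval 0.984 to 26) and 4.19% in other genes, 51 of 1217 (3.14 to 5.47). The difference was 3.81 percentage points (Newcombe interval -2.11 to 20.8, Fisher's exact test, adjusted p = 0.601, and between 0.385 and 1.0 under the alternatives), so none was detectable with 25 missense sites. Within single lists the counts were 1 of 14 in YUMM 1.1, 1 of 6 in YUMM 1.3, 0 of 3 in UV YUMM 1.1-9 and 0 of 6 in MB49. A cysteine was gained once, in Zscan4d.

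SIFT classed 9 of the 25 distinct missense changes as deleterious. They were G333R in Zscan4b and R497C in Zscan4d in YUMM 1.1, R172W in Zscan5b and C536F in Zfp617 in YUMM 1.3, P231L in Zfp638 and P611L in Zfp663 in UV YUMM 1.1-9, and S763I in Zfp292, R537G in Zfp111 and Q68L in Zkscan6 in MB49. All 9 were found in 1 list each, and the 4 missense sites listed in 2 tables were all classed as tolerated. This split by sharing was not tested. The deleterious share was 36.0% (exact interval 18.0 to 57.5), against 54.7% among other genes, 591 of 1080 (51.7 to 57.7). The difference of -18.7 percentage points did not pass the threshold (Newcombe interval -34.7 to 0.986, Fisher's exact test, adjusted p = 0.174, and between 0.174 and 0.822 under the alternatives). In YUMM 1.1 the share was 2 of 14, or 14.3%, against 44.9% in other genes, a difference of -30.6 percentage points (-42.7 to -4.23, Fisher's exact test, p = 0.0270, adjusted p = 0.135). Over all lists, leaving out shared sites raised the deleterious share in both groups. It was then 42.9% of 21 missense sites in zinc finger genes and 56.1% of 1030 in other genes.

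The zinc finger sites of YUMM 1.1 were led by the Zscan4 genes, with 8 of its 15 sites and both of its deleterious calls. Zscan4 proteins are made in a burst at the onset of embryonic transcription in the mouse and, in embryonic stem cells, act in telomere upkeep. Zscan4c carried 5 sites over 2756 bases. R110K at chr7:11006884 had 36 of 62 reads, or 58.1% (exact interval 44.8 to 70.5). The other Zscan4c sites lay lower, with Q239K at 6 of 51 reads (11.8%), P242S at 6 of 41 (14.6%), N349K at 55 of 302 (18.2%) and C389R at 32 of 176 (18.2%). The interval of R110K did not overlap those of the other Zscan4c sites, the highest of which ended at 29.2%. Q239K and P242S lie 9 bases apart and have the same number of reads with the new base.

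Zscan4b carried G333R at chr7:10901318 in 5 of 28 reads (17.9%, exact interval 6.06 to 36.9) and D293N at chr7:10901438 in 26 of 168 (15.5%, 10.4 to 21.8). Zscan4d carried R497C at chr7:11161953 in 35 of 109 reads (32.1%, 23.5 to 41.7), with a SIFT score of 0. Depth at the 8 sites ran from 28 to 302 reads. No Zscan4 site was in the list of YUMM 1.3, UV YUMM 1.1-9 or MB49. For UV YUMM 1.1-9 this follows from its list, which leaves out variants of YUMM 1.1.

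**Figure D2:**
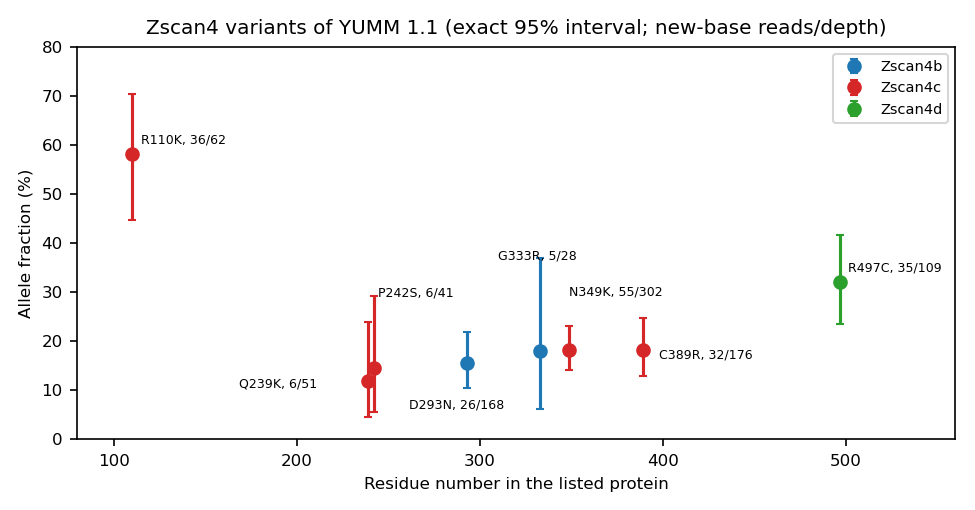
Allele fraction in percent (vertical axis) against the residue number in the listed protein (horizontal axis) for the 8 Zscan4 variants of YUMM 1.1, coloured by gene, with exact 95% intervals as bars and the reads with the new base over depth beside each point. R110K of Zscan4c stands at 58.1% and R497C of Zscan4d at 32.1%, with the other 6 between 11.8% and 18.2%.

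The Zscan4 genes are close copies, and reads of 1 copy can be placed on another. RefSeq lists 9 Zscan4 entries on chromosome 7 within 820 kb, of which 4 are protein-coding and 5 are pseudogenes. The sequences around their transcription starts show how alike the copies are. Over the 300 bases that run from 250 before to 50 after the start (RefSeq, GRCm38.p6), the 4 protein-coding genes were 95.3% to 99.3% identical in pairs where aligned. Zscan4c and Zscan4d matched at 281 of 289 aligned bases, and both are printed here 5′ to 3′ on the strand of the gene, with bases that differ or have no partner in capitals. Zscan4c is at chr7:11005495-11005794 on the plus strand and Zscan4d at chr7:11166099-11166398 on the minus strand.
Zscan4c: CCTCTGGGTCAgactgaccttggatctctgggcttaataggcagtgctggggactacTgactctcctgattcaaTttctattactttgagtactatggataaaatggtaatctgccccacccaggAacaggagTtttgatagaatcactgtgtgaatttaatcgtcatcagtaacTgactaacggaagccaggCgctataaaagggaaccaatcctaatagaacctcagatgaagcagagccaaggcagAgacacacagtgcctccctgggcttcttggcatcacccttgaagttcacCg
Zscan4d: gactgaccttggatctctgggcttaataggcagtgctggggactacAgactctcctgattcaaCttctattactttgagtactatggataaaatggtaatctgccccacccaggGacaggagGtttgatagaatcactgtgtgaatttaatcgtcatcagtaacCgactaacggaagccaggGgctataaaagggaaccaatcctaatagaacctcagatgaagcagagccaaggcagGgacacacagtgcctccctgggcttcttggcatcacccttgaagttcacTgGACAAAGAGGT
These stretches lie outside the listed coding sites and were not measured in the lines. The part of misplaced reads in the Zscan4 values was not tested.

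Outside the Zscan4 genes, YUMM 1.1 had 3 sites of its own, none of them classed as deleterious. T1433A in Zfp142 (chr1:74570338) had 28 of 72 reads, or 38.9% (exact interval 27.6 to 51.1). D6E in Zfp113 (chr5:138152882) had 14 of 53, or 26.4%, and a tolerated call of low confidence. E1440D in Zfp106 (chr2:120524038), an RNA-binding protein needed by motor neurons and muscle in the mouse, had 18 of 93, or 19.4%. The remaining 4 sites of YUMM 1.1 were also in the YUMM 1.3 list.

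Sharing of sites between lines was examined next, since the rule did not use it. Of the zinc finger sites, 5 were in 2 lists each and 0 were in all 3 single-line lists, where 53 sites of the whole series were. YUMM 1.1 and YUMM 1.3 shared 4 of them, which is 26.7% of the YUMM 1.1 and, with 4 of 8, 50% of the YUMM 1.3 zinc finger sites. YUMM 1.3 and MB49 shared 1, and YUMM 1.1 and MB49 shared 0. Over all genes, YUMM 1.1 and YUMM 1.3 shared 97 sites, YUMM 1.3 and MB49 61, and YUMM 1.1 and MB49 64. The whole lists hold 428 sites in YUMM 1.1, 225 in YUMM 1.3 and 707 in MB49. The counts of single pairs were not tested.

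The synonymous Y185 site of Zfp513 (chr5:31200479), a gene linked to retinal disease in humans, had 30 of 67 reads in YUMM 1.1 and 24 of 52 in YUMM 1.3, or 44.8% and 46.2%. V87I in Zfp180 (chr7:24104416) had 11 of 20 and 5 of 12, or 55.0% and 41.7%. Both sites were above 40% in both lines. The control sample behind the single-line lists is not given in the sources used here, and whether shared sites were inherited, arose in the tumours or come from misplaced reads was not tested.

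A3V in Zfp600 (chr4:146190229) had 17 of 129 reads in YUMM 1.1 and 24 of 146 in YUMM 1.3, or 13.2% and 16.4%. G138D in Zfp191 (chr18:24017675), now named Zfp24 and needed for myelination in the mouse, had 7 of 49 and 7 of 61, or 14.3% and 11.5%. G127R in Zfp936 (chr7:43189489) had 11 of 45 in YUMM 1.3 and 7 of 51 in MB49, or 24.4% and 13.7%. These 3 sites were low in both lines that list them. At none of the 5 sites did the read counts of the lines differ past the threshold (Fisher's exact test, adjusted p from 0.970 to 1.0 over 5 sites). The widest interval of a difference, that of Zfp180, ran from -20.3 to 42.8 percentage points, so moderate differences were not detectable at this depth. Only sites called in both lists could be compared. A site below the lowest read count or allele fraction of either list could not enter. The values of the 3 low sites were thus partly fixed from below, and the test cannot show that the lines are alike there.

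**Figure D3:**
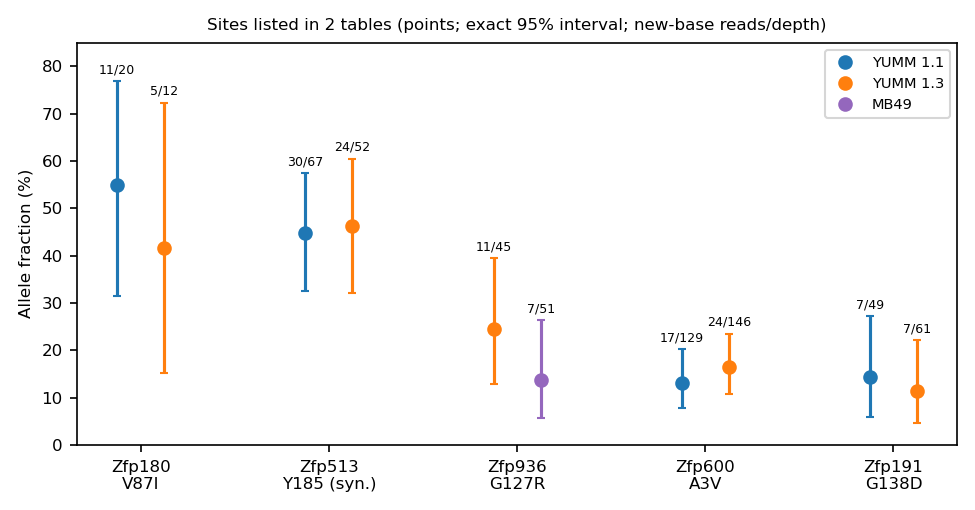
Allele fraction in percent of the 5 zinc finger sites that stand in 2 lists, 1 point per list with its exact 95% interval and the reads with the new base over depth above it. Zfp180 and Zfp513 lie at 41.7% to 55.0% in both lines and Zfp936, Zfp600 and Zfp191 at 11.5% to 24.4%.

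Over the 3 single-line lists, 5 of 27 distinct zinc finger sites were shared, or 18.5% (exact interval 6.30 to 38.1), against 111 of 1164 sites in other genes, or 9.54% (7.91 to 11.4). The difference of 8.98 percentage points did not pass the threshold (Newcombe interval -1.51 to 27.2, Fisher's exact test, adjusted p = 0.70). It passed when predicted, uncharacterised and chemosensory receptor genes (symbols in Gm, LOC, Rik, Olfr and Vmn) were left out of the other genes, whose shared share was then 4.65% (difference 13.9 percentage points, Fisher's exact test, adjusted p = 0.0372, and between 0.0372 and 0.70 under the alternatives). That setting changed the other genes alone and kept all 27 zinc finger sites. The larger difference thus follows from the choice of comparison genes. Within lists, the shared share was 4 of 15 in YUMM 1.1 against 25.2%, 5 of 8 in YUMM 1.3 against 46.1% and 1 of 9 in MB49 against 10.2%.

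YUMM 1.3 had 3 zinc finger sites found in no other list. R172W in Zscan5b (chr7:6231490), a SCAN domain gene, had 11 of 23 reads, or 47.8% (exact interval 26.8 to 69.4), and a SIFT score of 0.01. C536F in Zfp617 is described above. The synonymous K177 change of Zfp191 (chr18:24017321), 354 bases from its G138D, had 5 of 40 reads, or 12.5% (4.19 to 26.8). The 2 missense sites were above 40% and the synonymous site was low, but the interval of C536F (19.2 to 74.9) overlapped that of the synonymous site.

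MB49 had 4 of its 9 zinc finger sites in 3 genes of 1 stretch of chromosome 7, from Zfp180 to Zfp111. The stretch, chr7:24081877-24208149, holds 5 protein-coding genes, all of them zinc finger genes by symbol. Zfp180 carried the synonymous S206 site in 27 of 90 reads, or 30% (exact interval 20.8 to 40.6), and the synonymous L557 site in 7 of 17, or 41.2%. Zfp235 carried the synonymous F729 site in 7 of 12 reads, or 58.3% (27.7 to 84.8). Zfp111 carried R537G (chr7:24198579) in 5 of 21 reads, or 23.8% (8.22 to 47.2), with a SIFT score of 0. The intervals of the 4 sites overlap one another. V87I of Zfp180 is the only site of YUMM 1.1 and YUMM 1.3 in that stretch, and UV YUMM 1.1-9 had 0 there.

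The other MB49 sites were missense. Q68L in Zkscan6 (chr11:65814667) had 24 of 43 reads, or 55.8% (exact interval 39.9 to 70.9), and a SIFT score of 0.01. S763I in Zfp292 (chr4:34810770) had 21 of 48, or 43.8% (29.5 to 58.8), and a SIFT score of 0. Q306L in Zkscan17 (chr11:59492204) had 12 of 35, or 34.3%, and a tolerated score of 0.06. E108V in Zfp189 (chr4:49529221) had 5 of 15, or 33.3%. Q68L, Q306L and E108V are all T>A changes when written from the pyrimidine of the base pair. Of the MB49 sites in other genes, 170 of 698 were T>A.

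Chromosome 7 holds 102 of the 427 zinc finger genes, or 23.9%, and 9 of the 29 genes listed here, or 31.0%. It held 16 of the 38 distinct sites, 8 of them in the Zscan4 genes. Chromosome 13, with 42 such genes, or 9.84%, had 0 of the 38 zinc finger sites. The spread over chromosomes was not tested, and with 29 listed genes a count of 0 says little.

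In UV YUMM 1.1-9 the changes were additional to those of YUMM 1.1, whose reads at each site are given beside them. That list was selected for this difference, so the read counts are a description. L335* in Zfp81 (chr17:33334835) was the only stop gain in a zinc finger gene, with 3 of 42 reads, or 7.14% (exact interval 1.50 to 19.5), and 0 of 48 in YUMM 1.1, which allows a share of up to 6.25%. I70N in Zfp955b (chr17:33301767), a missense change in a splice region, had 10 of 61, or 16.4% (8.15 to 28.1), and 0 of 90 in YUMM 1.1. These genes are neighbours, and the sites lie 33068 bases apart.

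P231L in Zfp638 (chr6:83929546), which encodes a nuclear DNA-binding protein, had 10 of 67 reads, or 14.9% (7.40 to 25.7), and 0 of 67 in YUMM 1.1. P611L in Zfp663 (chr2:165352466) had 8 of 55 reads, or 14.5% (6.5 to 26.7), and 1 of 57 in YUMM 1.1. A synonymous change of the same codon, 1 base away, also had 8 of 55 reads, and 0 of 55 in YUMM 1.1. On 1 molecule, both changes would turn CCT into CTA, which again encodes leucine in place of proline. The reference and alternative bases of both Zfp663 entries are exchanged with each other in the deposited list, so the 1 read of YUMM 1.1 may belong to either.

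The synonymous sites of UV YUMM 1.1-9 were equally low. F414 of Zfp648 had 4 of 18 reads (22.2%), I161 of the X-linked Zfp92 had 3 of 19 (15.8%), I1025 of Zfp804b had 8 of 57 (14.0%), P84 of Zfp819 had 5 of 38 (13.2%), E21 of Zfp558 had 6 of 53 (11.3%) and F127 of Zkscan7 had 4 of 41 (9.76%). YUMM 1.1 had 1 of 19 reads with the new base at the Zkscan7 site and 0 at the other 5. None of the 11 sites reached 40%, a level that 3 sites in YUMM 1.1, 4 in YUMM 1.3 and 4 in MB49 exceeded. Of the sites in other genes, 3 of 642 in UV YUMM 1.1-9 were above that level. The same counts were 59 of 413 in YUMM 1.1, 45 of 217 in YUMM 1.3 and 445 of 698 in MB49. Low values were thus common to the whole UV YUMM 1.1-9 list.

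**Figure D4:**
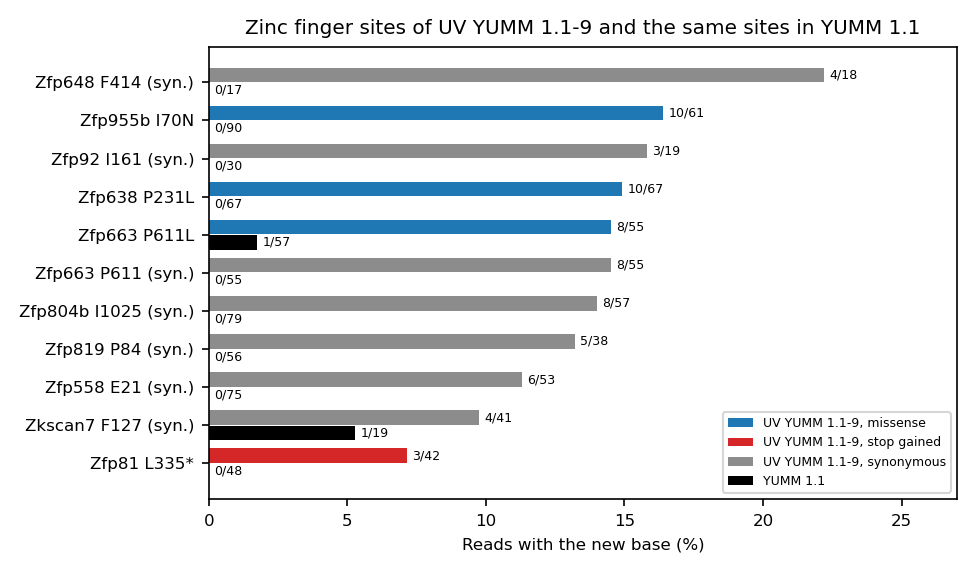
Reads with the new base, in percent, at the 11 zinc finger sites of UV YUMM 1.1-9 (coloured bars, by kind of change) and at the same sites in YUMM 1.1 (black bars), with the reads over depth beside each bar. UV YUMM 1.1-9 lies between 7.14% and 22.2%, and YUMM 1.1 has 1 read each at the P611L site of Zfp663 and at the Zkscan7 site.

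The share of each list that fell in zinc finger genes was compared between lines. It was 3.50% in YUMM 1.1 (15 of 428, exact interval 1.97 to 5.71), 3.56% in YUMM 1.3 (8 of 225, 1.55 to 6.89), 1.68% in UV YUMM 1.1-9 (11 of 653, 0.844 to 2.99) and 1.27% in MB49 (9 of 707, 0.584 to 2.40). None of the 6 pairs passed the threshold (Fisher's exact test, lowest adjusted p = 0.104, for YUMM 1.1 and MB49, and between 0.00718 and 0.784 under the alternatives). The pairs of UV YUMM 1.1-9 with YUMM 1.1 and YUMM 1.3 are partly fixed by its list, which leaves out what YUMM 1.1 carries. Counting only protein-changing sites, the share was 4.68% in YUMM 1.1 (14 of 299), against 0.924% in UV YUMM 1.1-9 (4 of 433) and 1.11% in MB49 (6 of 539). In YUMM 1.3 it was 3.57% (6 of 168), which did not pass the threshold against MB49 (Fisher's exact test, adjusted p = 0.0629). No test of YUMM 1.3 against UV YUMM 1.1-9 is given, since 4 zinc finger sites of YUMM 1.3 are also YUMM 1.1 sites. YUMM 1.1 minus YUMM 1.3 was 1.11 percentage points (Newcombe interval -3.31 to 4.69, Fisher's exact test, adjusted p = 0.770). YUMM 1.1 lay above MB49 by 3.57 percentage points (Newcombe interval 1.29 to 6.65, Fisher's exact test, p = 0.00180, adjusted p = 0.00718). The adjustment over 6 pairs includes those with UV YUMM 1.1-9 and depends on them. The 8 sites in the Zscan4 copies were counted singly. The distance of YUMM 1.1 to UV YUMM 1.1-9 was 3.76 percentage points. That value is partly fixed by the UV YUMM 1.1-9 list, which leaves out what YUMM 1.1 carries, the Zscan4 sites included. No test of it is given. Without the Zscan4 genes the share of protein-changing sites in YUMM 1.1 was 2.06% (6 of 291), below the 3.57% of YUMM 1.3, and its difference from MB49 did not pass (Fisher's exact test, adjusted p = 0.444).

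**Figure D5:**
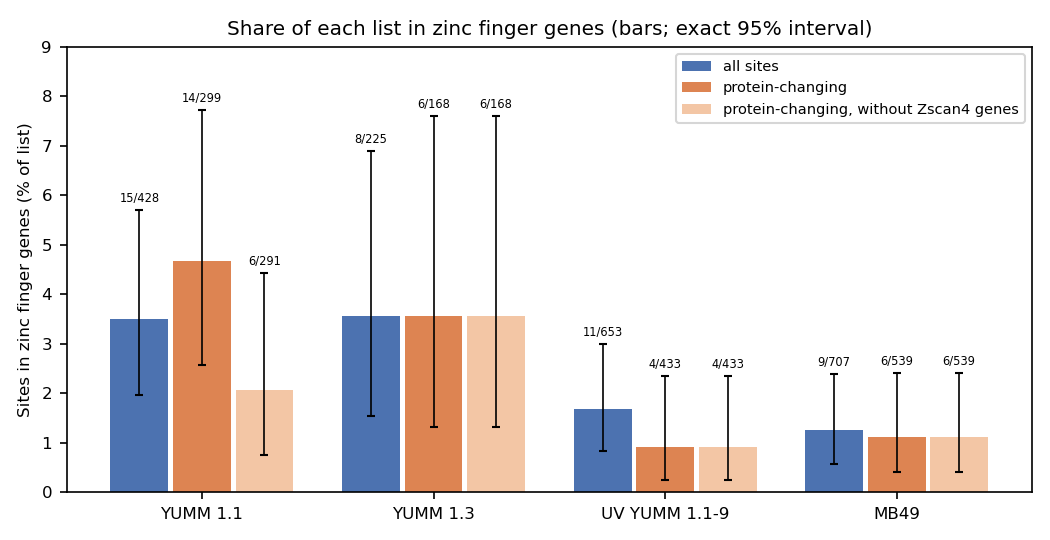
Share of each list's sites that lie in zinc finger genes, in percent, as bars for all sites, for protein-changing sites and for protein-changing sites without the Zscan4 genes, with exact 95% intervals and the counts above. The protein-changing bar of YUMM 1.1 stands at 4.68% and falls to 2.06% without the Zscan4 genes.

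Allele fractions of zinc finger sites were compared with those of the other sites of the same list. The median was 18.2% against 25% in YUMM 1.1, 33.1% against 19.2% in YUMM 1.3, 14.5% against 13.5% in UV YUMM 1.1-9 and 34.3% against 45.8% in MB49. None of the 4 differences passed the threshold (permutation test, lowest p = 0.050, for MB49, adjusted p = 0.137, and between 0.137 and 0.452 under the alternatives). The median of YUMM 1.1 was 26.4% without the Zscan4 genes. At sites of at least 30 reads the median of YUMM 1.3 was 16.4%, against 18.6% in other genes. That of MB49 was 34.3% against 44.9% at such sites.

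Base changes at the 38 distinct sites were 20 C>T, 7 T>A, 5 C>A, 5 T>C, 1 T>G and 0 C>G, written from the pyrimidine of the pair. C>T led in YUMM 1.1 with 9 of 15 sites, in YUMM 1.3 with 7 of 8 and in UV YUMM 1.1-9 with 6 of 11, whereas MB49 had 3 C>T and 3 T>A among 9. The base 5′ of the changed C was a pyrimidine in 4 of the 4 C>T sites of UV YUMM 1.1-9 where the codon shows it, in 3 of 3 in MB49, in 3 of 7 in YUMM 1.1 and in 1 of 5 in YUMM 1.3. Among other genes the same counts were 156 of 178, 105 of 159, 23 of 58 and 17 of 36. C>T made up 84 of the 413 other sites in YUMM 1.1, 61 of 217 in YUMM 1.3, 277 of 642 in UV YUMM 1.1-9 and 226 of 698 in MB49. T>A made up 47, 30, 110 and 170 of these other sites, in the same order. Of the zinc finger sites it made up 0, 0, 4 and 3. C>G made up 98 of the 413 other sites of YUMM 1.1 and 0 of its 15 zinc finger sites. With so few sites these counts are a description and were not tested.

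Among 11 genes of the corepressor machinery that KRAB zinc finger proteins recruit and of heterochromatin (Trim28, Setdb1, Cbx1, Cbx3, Cbx5, Chd4, Morc3, Atrx, Daxx, Dnmt1 and Uhrf1), 3 were listed, beside 6.87% of all protein-coding genes, and 2 of them carried a protein change, both in YUMM 1.3. With 11 genes this is a description and was not tested. Dnmt1, the maintenance DNA methyltransferase, had P1140A in 26 of 37 reads, or 70.3%, with a SIFT score of 0.04. Morc3, a nuclear ATPase, had K558N in 13 of 106 reads, or 12.3%, and was classed as tolerated. In UV YUMM 1.1-9 Morc3 and Chd4 had 1 synonymous change each. Trim28 and Setdb1 were in none of the 4 lists.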

How the data were processed

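Whole-exome libraries of 4 mouse tumour cell lines, 1 per line, were compared through the variant lists the authors deposited. Tools named in the submitters' processing notes, without their roles, are BWA 0.7.5a, SAMtools, Picard, GATK and FastQC, and the build is mm10. Which caller and filters made the lists is not given in the sources used here. Per the file headers, the deposited read counts are whole numbers of reads with the reference and the new base, not normalized, beside consequence, codon, residue and SIFT columns. The lists of UV YUMM 1.1-9 and YUMM 1.1 lost 5 and 1 repeated rows. Total read counts at listed sites were 63899 in YUMM 1.1, 48577 in YUMM 1.3, 34839 in UV YUMM 1.1-9 and 72270 in MB49.

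Allele fractions were computed as the new-base reads over both counts. Shares were given exact (Clopper-Pearson) 95% intervals and compared by two-sided Fisher's exact test with Newcombe intervals; medians were compared by a permutation test with 100000 resamples, also where a group had under 10 values. P-values were adjusted by Benjamini-Hochberg within each family (6, 4, 5, 5 and 4 comparisons, and 5 shared sites), with a threshold of 0.05. Scripts, in Python 3.11.15 with SciPy 1.17.1 and Biopython 1.88, were tested on simulated data. Reads without molecular identifiers are not independent molecules, and sites of 1 library are not replicates; a count of 0 allows 3 reads over the depth. All 29 symbols matched RefSeq (GRCm38.p6), 28 by current symbol, and all 43 sites lay within their genes.

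The members, lists and tests were chosen with earlier results of these data known. Named are sites that lose a cysteine or histidine, gain a stop, lie at a splice site, are shared, lie in genes with several sites or lists, or have the 3 highest or lowest allele fractions among protein changes of a list, with deleterious calls; synonymous sites named beyond these were added after their values were seen. Placing changes within fingers was planned, but protein sequences were not used here. Alternatives covered read and allele fraction floors, sites found in 1 list, protein changes alone, wider symbols, the Zscan4 genes, neighbouring changes, comparison genes, SIFT confidence and depth.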

Additional observations from a re-analysis of the deposited data

How the results depend on the processing

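Of 137 values recomputed under the alternatives, 16 changed sign and 4 passed the threshold, while 117 did neither. As no reported difference in these 5 families had passed, none could lose its call, and the 117 say nothing about stability. With protein-changing sites alone, the share of the list in zinc finger genes differed by 3.57 percentage points for YUMM 1.1 minus MB49, past the threshold. For YUMM 1.1 minus UV YUMM 1.1-9 it differed by 3.76, which is counted among the 4. That value is partly fixed by the UV YUMM 1.1-9 list, which leaves out what YUMM 1.1 carries, so its passing is not read as a result. The share differed by 1.11 between YUMM 1.1 and YUMM 1.3 and by -0.189 between UV YUMM 1.1-9 and MB49, both with the sign turned. With the Zscan4 genes left out as well, a setting added after seeing the data, the last was again -0.189. A wider set of zinc finger symbols took YUMM 1.1 minus MB49 to 2.56, past the threshold (Fisher's exact test, adjusted p = 0.0498). Without the Zscan4 genes, YUMM 1.1 minus UV YUMM 1.1-9 was -0.0179. Sites found in 1 list gave 0.938 for YUMM 1.1 minus YUMM 1.3, and an allele fraction of at least 20% gave -0.147 for UV YUMM 1.1-9 minus MB49. For shared sites, the difference in MB49 was -6.21 at that floor and -0.187 with the wider symbols. The pooled difference was 13.9 and past the threshold when predicted and receptor genes were left out of the other genes alone. For lost cysteine or histidine in YUMM 1.1 it was -1.69 at an allele fraction of at least 20% and -2.87 without the Zscan4 genes. For deleterious calls, sites found in 1 list gave 42.9 in YUMM 1.3 and 1.58 in MB49, and the wider symbols gave 2.11 in MB49. For the median allele fraction, the common floor gave -1.08 in UV YUMM 1.1-9, a depth of at least 30 reads gave -2.20 in YUMM 1.3, and leaving out the Zscan4 genes, added after seeing the data, gave 1.42 in YUMM 1.1. The cause of these changes was not tested, except that each setting tests fewer or other sites. The lists without UV YUMM 1.1-9 are the reported setting for shared sites, so the analysis with it was run instead, a choice added after seeing the data. No paired analysis was possible because each line has 1 library.

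With 3 to 14 missense zinc finger changes a list, only large differences could be detected, and the 4 sites with depths of 12 to 15 reads have wide intervals.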

Other observations

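Zinc finger genes of other C2H2 classes (symbols in Zbtb, Zfhx, Prdm, Klf, Gli, Zic, Ikzf, Sall, Egr and Sp) were listed in 10 of 105 genes, beside 6.87% of all protein-coding genes, and 9 of the 10 carried a protein change. The difference from that background was not tested. MB49 carried Q501H in Sp3, a broadly expressed activator or repressor, in 41 of 126 reads (32.5%), and K1253T in Gli3, a transcription factor of Hedgehog signalling, in 24 of 43 (55.8%). Both were classed as deleterious, that of Gli3 with low confidence. YUMM 1.1 carried F173L in Ikzf3, a lymphoid regulator, in 14 of 45 reads (31.1%), also classed as deleterious. UV YUMM 1.1-9 carried a stop gain, Q305* in Zbtb44, in 6 of 38 reads (15.8%). It also carried S279R in Zbtb11 in 10 of 59 reads (16.9%), classed as deleterious with low confidence. W828R in Prdm9, the meiotic histone methyltransferase that places recombination sites through its fingers, was in both YUMM 1.1 (11 of 74 reads, 14.9%) and YUMM 1.3 (8 of 57, 14.0%), and was classed as tolerated.

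A gene listed as Gm13154 is Zfp985 in RefSeq and so lies outside the symbol rule. It carried I39M (chr4:147581328) and Q174R (chr4:147583197) in all 3 single-line lists. I39M had an allele fraction of 45.8% in YUMM 1.1, 39.4% in YUMM 1.3 and 38.9% in MB49, at depths of 674, 685 and 373 reads. Q174R had 58.5%, 57.7% and 39.6%, at 82, 111 and 53 reads. No site of a zinc finger gene chosen by symbol was in all 3 lists.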
